A study of Homo sapiens with 12 samples.

Results

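The measurements describe 46 genes of the CC, CXC, CX3C and XC chemokine system, ligands and receptors, in 2 Hodgkin lymphoma cell lines carrying EBF1 or a control vector. They were taken from a list of symbols that leaves out CCL17, CCL22 and their receptor, and the interferon-induced CXCR3 ligands with that receptor. Of the 46 symbols, 43 had at least 1 array row annotated with that symbol alone, CCL27 was listed only on a row shared with LOC730098, and CCL13 and CCR3 were not analysed here. These 43 rows, the brightest of each gene, lie among 20546 rows with a gene symbol, 19158 of which name 1 gene. A further 4 rows carry several symbols, 1 for CCL3 with CCL3L1 and CCL3L3, 2 for CCL4 with CCL4L1 and CCL4L2, and the CCL27 row. They were marked and not counted as genes.

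The 4 groups were L-428 tGFP/EBF1, L-428 tGFP, L-1236 tGFP/EBF1 and L-1236 tGFP, with 3 independent samples each and 12 arrays in all. L-428 and L-1236 are established lines of Hodgkin lymphoma, whose tumour cells derive from B cells and have lost much of the B-cell programme. EBF1, a transcription factor of early B-cell development, was delivered on a vector that joins it to the fluorescent protein tGFP through an internal ribosome entry site, and controls received tGFP alone. All groups were cultured for 8 days after transduction and sorted for tGFP, so every sample carries a vector and the fluorescent protein. The promoter of the vector is not given in the sources used here, and the labels name no clones.

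The row listing EBF1 and PDGFRB averaged 12.96 ± 0.027 in L-428 tGFP/EBF1 against 8.45 ± 0.16 in L-428 tGFP, and 13.15 ± 0.11 in L-1236 tGFP/EBF1 against 7.17 ± 0.057 in L-1236 tGFP (log2 signal, SD, n = 3 each). It was 22.8-fold and 62.8-fold higher with EBF1. Array medians lay between 7.19 and 7.31 on the log2 scale, and replicates of a group correlated at 0.992 to 0.997 over all rows. Replicate 3 of L-428 tGFP and, less clearly, replicate 1 of L-1236 tGFP/EBF1 stood apart from the others of their groups. Their interquartile ranges were 2.28 (against 2.49 and 2.47) and 2.17 (against 2.31 and 2.26). In L-1236 tGFP/EBF1 the gene-by-gene array weights of limma were 0.34, 0.50 and 3.86 for replicates 1 to 3, so replicate 2 was also low. Results of members are also given without both arrays that stand apart where a call changes, an omission added after seeing the data. Of 10 markers of Hodgkin/Reed-Sternberg cells all were measured, and the mean over them lay between 9.82 and 10.35 on the 12 arrays, above every array median. Of these, CD40 (1.05) and CD274 (0.91) rose with EBF1 in L-428 (limma). In L-1236, CD274 (0.63), TNFRSF8 (0.51) and CD40 (0.30) rose and FUT4 (-0.22) fell (limma). TRAF1 was close to the array medians in L-1236, at 7.31 with EBF1 and 7.43 with tGFP. Of 7 B-cell markers 6 were measured, and their mean was 6.95 to 7.01 in L-428 tGFP/EBF1 and 6.89 to 6.96 in L-428 tGFP, and 7.81 to 7.82 in L-1236 tGFP/EBF1 and 7.6 to 7.7 in L-1236 tGFP. PAX5 (group means 7.67 to 9.51) and BLK (7.52 to 7.66) lay above every array median, and MS4A1, the B-cell antigen CD20, below (5.86 to 5.89). CD22 lay below in L-428 (6.39 with EBF1, 6.38 with tGFP) and above in L-1236 (8.51 and 8.91). CD79B lay below in L-428 (7.0 and 6.94) and in L-1236 tGFP (7.02), with 7.28 in L-1236 tGFP/EBF1. CD79A, a signalling chain of the B-cell receptor, rose in both lines (limma). Its means were 7.19 in L-428 tGFP/EBF1 and 6.96, below every array median, in L-428 tGFP. In L-1236 they were 8.19 in tGFP/EBF1 and 7.0, also below, in tGFP. CD79B rose and CD22 fell in L-1236 (limma).

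Chemokines are small secreted proteins that guide leukocytes along gradients by binding receptors of the G protein-coupled family. Their names follow the spacing of the first cysteines, CC, CXC, CX3C or XC. In Hodgkin lymphoma the tumour cells are few among T cells, macrophages and eosinophils, and chemokines made by the tumour cells are known as a means by which these cells are drawn in. CCR7, CXCR4 and CXCR5 are the receptors that place B cells in lymphoid tissue.

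The 250 bases before the annotated start of 4 responding genes are shown because EBF1 binds DNA and these genes moved in opposite directions. The sequences come from RefSeq (GRCh38.p14), the first listed start of each gene, with matches to 6 motifs in capitals. The motifs, searched on both strands, were the EBF core CCCNNGGG, its longer form with TCCC and GGGA around 2 free bases, the NF-kappaB letters GGG and TTCC around 3 free bases, the STAT letters TTCNNNGAA, the AP-1 letters TGANTCA and the interferon regulatory factor letters GAAA and GAAA around 2 free bases. The longer EBF form contains the core.
CCL1 (chr17:34363234-34363483, minus strand): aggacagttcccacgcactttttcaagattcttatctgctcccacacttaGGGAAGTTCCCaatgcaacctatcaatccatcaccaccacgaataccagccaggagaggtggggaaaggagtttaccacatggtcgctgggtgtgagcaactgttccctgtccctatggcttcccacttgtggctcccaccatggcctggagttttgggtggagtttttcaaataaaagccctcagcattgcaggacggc
CCL3 (chr17:36090144-36090393, minus strand): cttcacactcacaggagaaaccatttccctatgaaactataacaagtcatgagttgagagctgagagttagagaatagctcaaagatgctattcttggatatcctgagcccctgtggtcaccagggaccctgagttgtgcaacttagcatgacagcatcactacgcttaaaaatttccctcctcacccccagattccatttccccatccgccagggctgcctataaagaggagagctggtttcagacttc
CCL18 (chr17:36064022-36064271, plus strand): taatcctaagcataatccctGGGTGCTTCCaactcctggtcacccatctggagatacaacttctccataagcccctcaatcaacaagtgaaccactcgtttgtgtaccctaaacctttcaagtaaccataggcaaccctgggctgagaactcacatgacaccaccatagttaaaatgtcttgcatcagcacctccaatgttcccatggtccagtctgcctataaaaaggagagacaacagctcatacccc
CXCR4 (chr2:136118150-136118399, minus strand): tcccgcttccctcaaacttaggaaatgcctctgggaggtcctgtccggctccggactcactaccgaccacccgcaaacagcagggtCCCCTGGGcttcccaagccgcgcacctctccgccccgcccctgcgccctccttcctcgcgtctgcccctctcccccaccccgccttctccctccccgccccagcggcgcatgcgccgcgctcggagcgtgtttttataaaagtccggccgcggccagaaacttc
In CCL1 the capitals mark a pair of overlapping NF-kappaB matches, 1 on each strand, at 200 to 190 bases before the start, and in CCL18 1 such match at 230 to 221 bases. In CXCR4 they mark the EBF core at 164 to 157 bases, and the CCL3 window held no match to any of the 6. Of 35116 promoters of the same length, 17.1% held the EBF core, 1.06% its longer form, 5.67% the NF-kappaB letters, 6.57% the STAT letters, 6.57% the AP-1 letters and 3.02% the interferon regulatory factor letters. Among the 32 members with a promoter in the table, the core was in 4, the longer form in 0, the NF-kappaB letters in 8, the STAT letters in 6, the AP-1 letters in 5 and the interferon regulatory factor letters in 2. CCL5, CX3CL1, CCL4 and CXCL16 had no entry. A match of letters describes the sequence and does not show that a factor is bound there.

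In L-428, EBF1 cells held less CCL1, CCL5 and CX3CL1 than control cells, and no member passed as higher. The 3 falls were between 1.33-fold and 1.53-fold. Of 43 measured members, 0 were higher and 3 lower at an adjusted p of 0.05 (limma, Benjamini-Hochberg over all 20546 rows), which is 6.98% against 4.34% of all rows (2.62% higher and 1.72% lower). The direction of the rows called depends on the array that stands apart: 538 were higher and 354 lower with all arrays, 464 and 843 without replicate 3 of L-428 tGFP, and 703 and 1281 without both arrays that stand apart (limma), so the members' direction is not read against it. At an unadjusted p under 0.05 the count was 4, the fourth being CCL3 in the upward direction. The share of all rows at that level was not counted, so this count has no background to be read against. None reached 2-fold, the limit in the study's design text, which 0.0973% of rows passed. The median change over the members was -0.013, against 0.0037 over all rows.

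CCL1, a ligand of CCR8 that attracts activated T cells, measured 11.24, 11.18 and 11.23 on the L-428 tGFP/EBF1 arrays and 11.91, 11.98 and 11.59 on the L-428 tGFP arrays (log2 signal, replicates 1 to 3). Every EBF1 array lay below every control array. The group means were 11.22 ± 0.033 with EBF1 and 11.83 ± 0.21 with tGFP (SD, n = 3 each), a log2 change of -0.61 with a standard error of 0.079 (limma, adjusted p = 8.26e-05). The call was kept with each array left out in turn, with changes between -0.73 and -0.53.

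CCL5, which attracts T cells, monocytes and eosinophils, measured 11.53, 11.45 and 11.44 in L-428 tGFP/EBF1 against 11.91, 12.13 and 11.61 in L-428 tGFP. The groups did not overlap, but replicate 3 of the controls came within 0.1 log2 units of the highest EBF1 array. The change was -0.41 ± 0.093 (SE; limma, adjusted p = 0.0144). It lost the call when replicate 2 or 3 of L-428 tGFP/EBF1 or replicate 1 or 2 of L-428 tGFP was left out (limma, adjusted p up to 0.0783), and also after median centring and with every row tested. It was -0.54 (limma, adjusted p = 0.000182) without both arrays that stand apart.

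CX3CL1, or fractalkine, a chemokine held on the membrane by a mucin stalk, measured 9.86, 9.97 and 9.95 in L-428 tGFP/EBF1 against 10.38, 10.58 and 10.03 in L-428 tGFP. Again the groups did not overlap and replicate 3 of the controls lay closest to the EBF1 arrays. The change was -0.41 ± 0.10 (SE; limma, adjusted p = 0.0269). Leaving out any 1 of the 3 EBF1 arrays or replicate 1 or 2 of the controls ended the call (limma, adjusted p up to 0.142), as did median centring, testing every row and a fit on the L-428 arrays alone. Without both arrays that stand apart it was -0.56 (limma, adjusted p = 0.000165). CX3CL1 is also known from endothelial cells. Of 8 stromal and endothelial markers, 1 passed in L-428, PECAM1, which rose by 0.72 (limma, adjusted p = 5.52e-06), and the mean over the list was 7.28 to 7.36 in L-428 tGFP/EBF1 and 7.23 to 7.33 in L-428 tGFP. PECAM1 had means of 8.51 in L-428 tGFP/EBF1 and 7.79 in L-428 tGFP, COL1A1, KRT8 and KRT18 lay between 7.27 and 7.91 in L-428, and COL1A2, COL3A1, VWF and CDH5 lay below every array median there. The part of that list in the CX3CL1 value was not tested.

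In L-1236, EBF1 cells held less CCL3, CCL5, CXCL16 and CCL1 than control cells and more CCL18, CCL4 and CXCR4. Changes ran from 1.24-fold to 1.51-fold. Of 43 measured members, 3 were higher and 4 lower (limma), or 16.3% against 9.64% of all rows (3.69% higher and 5.95% lower), and again 0 reached 2-fold, which 0.146% of rows did. At an unadjusted p under 0.05 the count was 9, again without a share of all rows to set beside it. The median change was 0.029 over the members and 0.008 over all rows. In bulk samples a lower share of cells that make a transcript and less of it per cell cannot be told apart.

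CCL3, an inflammatory CC ligand for monocytes and T cells, measured 7.99, 8.09 and 8.15 in L-1236 tGFP/EBF1 against 8.72, 8.58 and 8.50 in L-1236 tGFP. Every EBF1 array was lower than every control array. The means were 8.08 ± 0.078 and 8.60 ± 0.11 (SD, n = 3 each; EBF1 and control), a change of -0.52 ± 0.087 (SE; limma, adjusted p = 0.000498). The row shared by CCL3, CCL3L1 and CCL3L3, which are near-identical copies, changed by -0.081 (limma, adjusted p = 0.679), so these rows disagree and the CCL3 value is uncertain.

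CCL5 measured 9.30, 9.30 and 9.40 in L-1236 tGFP/EBF1 against 9.88, 9.78 and 9.73 in L-1236 tGFP, without overlap. Its change was -0.47 ± 0.093 (SE; limma, adjusted p = 0.00248), and CCL5 fell in both lines. CCL1 measured 7.92, 7.97 and 7.93 with EBF1 against 8.32, 8.20 and 8.24 in the L-1236 controls, a change of -0.31 ± 0.079 (SE; limma, adjusted p = 0.0151). The CCL1 call in L-1236 was lost after median centring and without replicate 3 of L-1236 tGFP/EBF1 or replicate 1 of L-1236 tGFP (limma, adjusted p up to 0.0749). CXCL16, the transmembrane ligand of CXCR6, measured 7.71, 7.74 and 7.82 with EBF1 against 8.05, 8.02 and 8.15 in L-1236 tGFP. That change was -0.31 ± 0.073 (SE; limma, adjusted p = 0.00851), which missed the threshold without replicate 3 of L-1236 tGFP (limma, adjusted p = 0.0549). In L-428 CXCL16 measured 7.49, 7.61 and 7.50 with EBF1 against 7.72, 7.80 and 7.50 in controls and did not pass (-0.14; limma, adjusted p = 0.419). Without replicate 3 of L-428 tGFP, the control array at the level of the EBF1 ones, it was -0.23 (limma, adjusted p = 0.043), and -0.23 without both arrays that stand apart (limma, adjusted p = 0.026).

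CCL18, a chemokine of macrophages and dendritic cells, measured 7.38, 7.21 and 7.55 in L-1236 tGFP/EBF1 against 6.73, 6.83 and 6.80 in L-1236 tGFP. The EBF1 arrays were all higher, with a wider spread (SD 0.17 against 0.051). The change was 0.59 ± 0.085 (SE; limma, adjusted p = 0.000105). CCL4, a close relative of CCL3, measured 6.24, 5.95 and 6.37 with EBF1 against 5.78, 5.83 and 5.75 in the controls of L-1236, with replicate 2 of the EBF1 arrays nearest to the controls. Its change was 0.40 ± 0.082 (SE; limma, adjusted p = 0.00301). The 2 rows that CCL4 shares with CCL4L1 and CCL4L2 changed by 0.28 (limma, adjusted p = 0.00849) and 0.12 (limma, adjusted p = 0.467), so the size of the CCL4 change is uncertain. Both CCL18 and CCL4 stayed below 7.63, the median of all tested values, in every group, and no background signal was available to tell a low transcript from none. This limit is higher than the array medians over all rows (7.19 to 7.31), to which the cell-type markers are compared. A marker above those medians can thus lie below 7.63, as BLK did in L-1236 tGFP (7.52).

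CXCR4 is the receptor for CXCL12 that holds B cells in bone marrow and in the dark zone of germinal centres. It was the only receptor of 14 that passed in L-1236 (limma), or 7.14% against 9.64% of all rows. It measured 10.35, 10.46 and 10.33 in L-1236 tGFP/EBF1 against 10.03, 10.05 and 10.03 in L-1236 tGFP. The groups were separate, and the change was 0.34 ± 0.071 (SE; limma, adjusted p = 0.00367). In L-428 CXCR4 measured 10.45, 10.34 and 10.42 with EBF1 against 10.47, 10.48 and 10.21 in controls, a change of 0.02 (limma, adjusted p = 0.978). In L-428 none of the 14 receptors passed, against 4.34% of all rows, and none had an unadjusted p under 0.05 (limma). With 14 genes, a count of 0 does not set the receptors apart from rows in general.

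**Figure D1:**
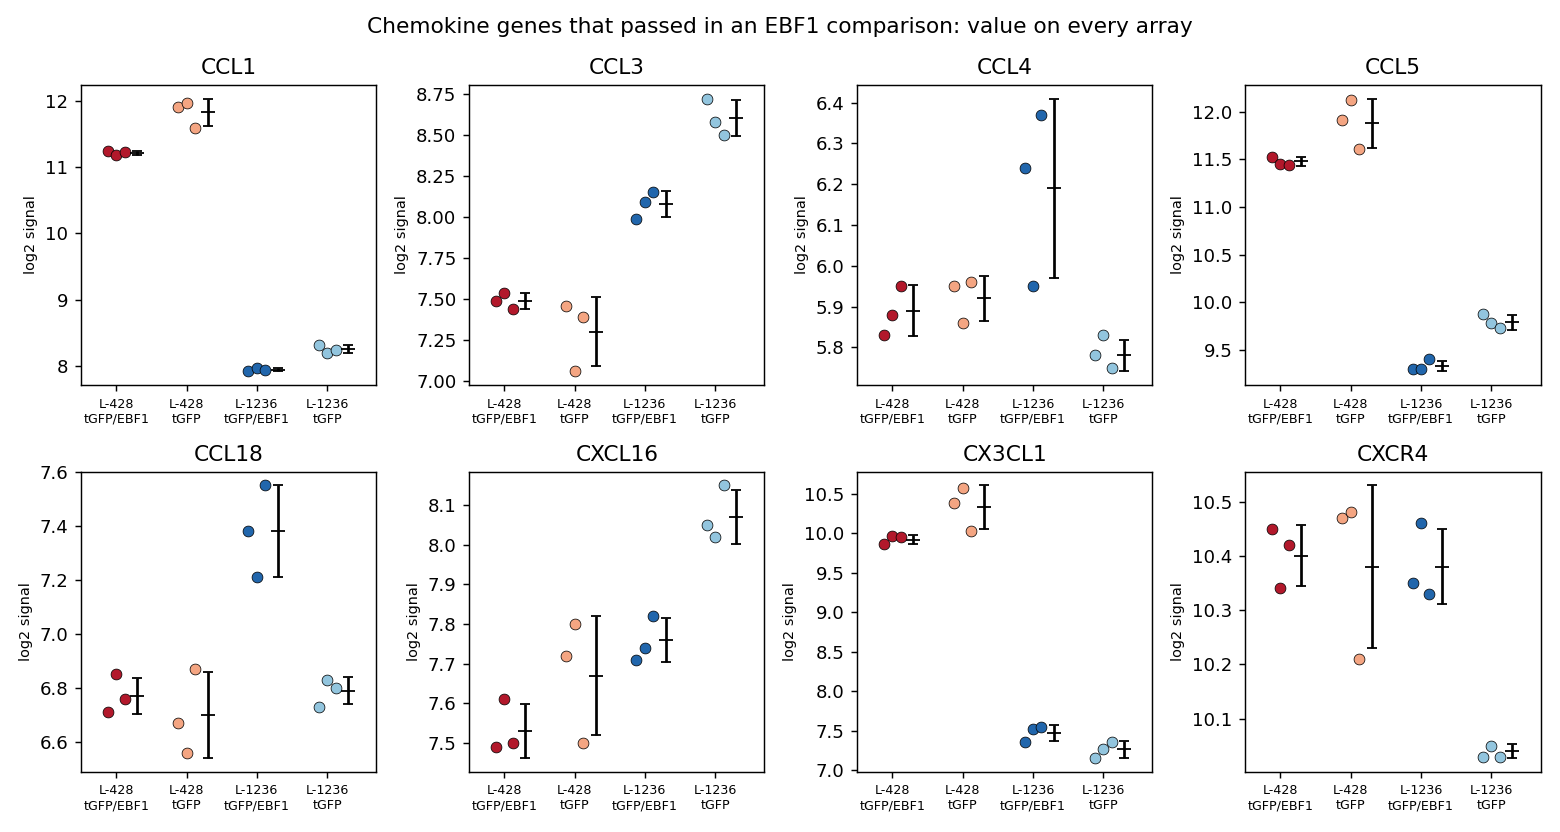
Log2 signal (vertical axis, a scale of its own for each gene) on every array of the 4 groups, for the 8 members that passed an adjusted p of 0.05 in an EBF1 comparison. Points are single arrays in replicate order, and bars are mean ± SD of n = 3. CCL1 and CCL5 lie lower with EBF1 in both lines, and CCL18, CCL4 and CXCR4 lie higher with EBF1 in L-1236.

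Counted by single arrays alone, 7 of 43 members had EBF1 and control arrays that did not overlap in L-428 and 11 of 43 in L-1236, against 18.3% and 26.7% of all rows. By role, 17 CC ligands were measured, of which 0 rose and 2 fell in L-428 and 2 rose and 3 fell in L-1236 (limma). These are 11.8% and 29.4%, against 4.34% and 9.64% of all rows. Of 12 CXC, CX3C and XC ligands, 1 fell in L-428 and 1 fell in L-1236, or 8.33% in each line, with 0 higher in either.

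**Figure D2:**
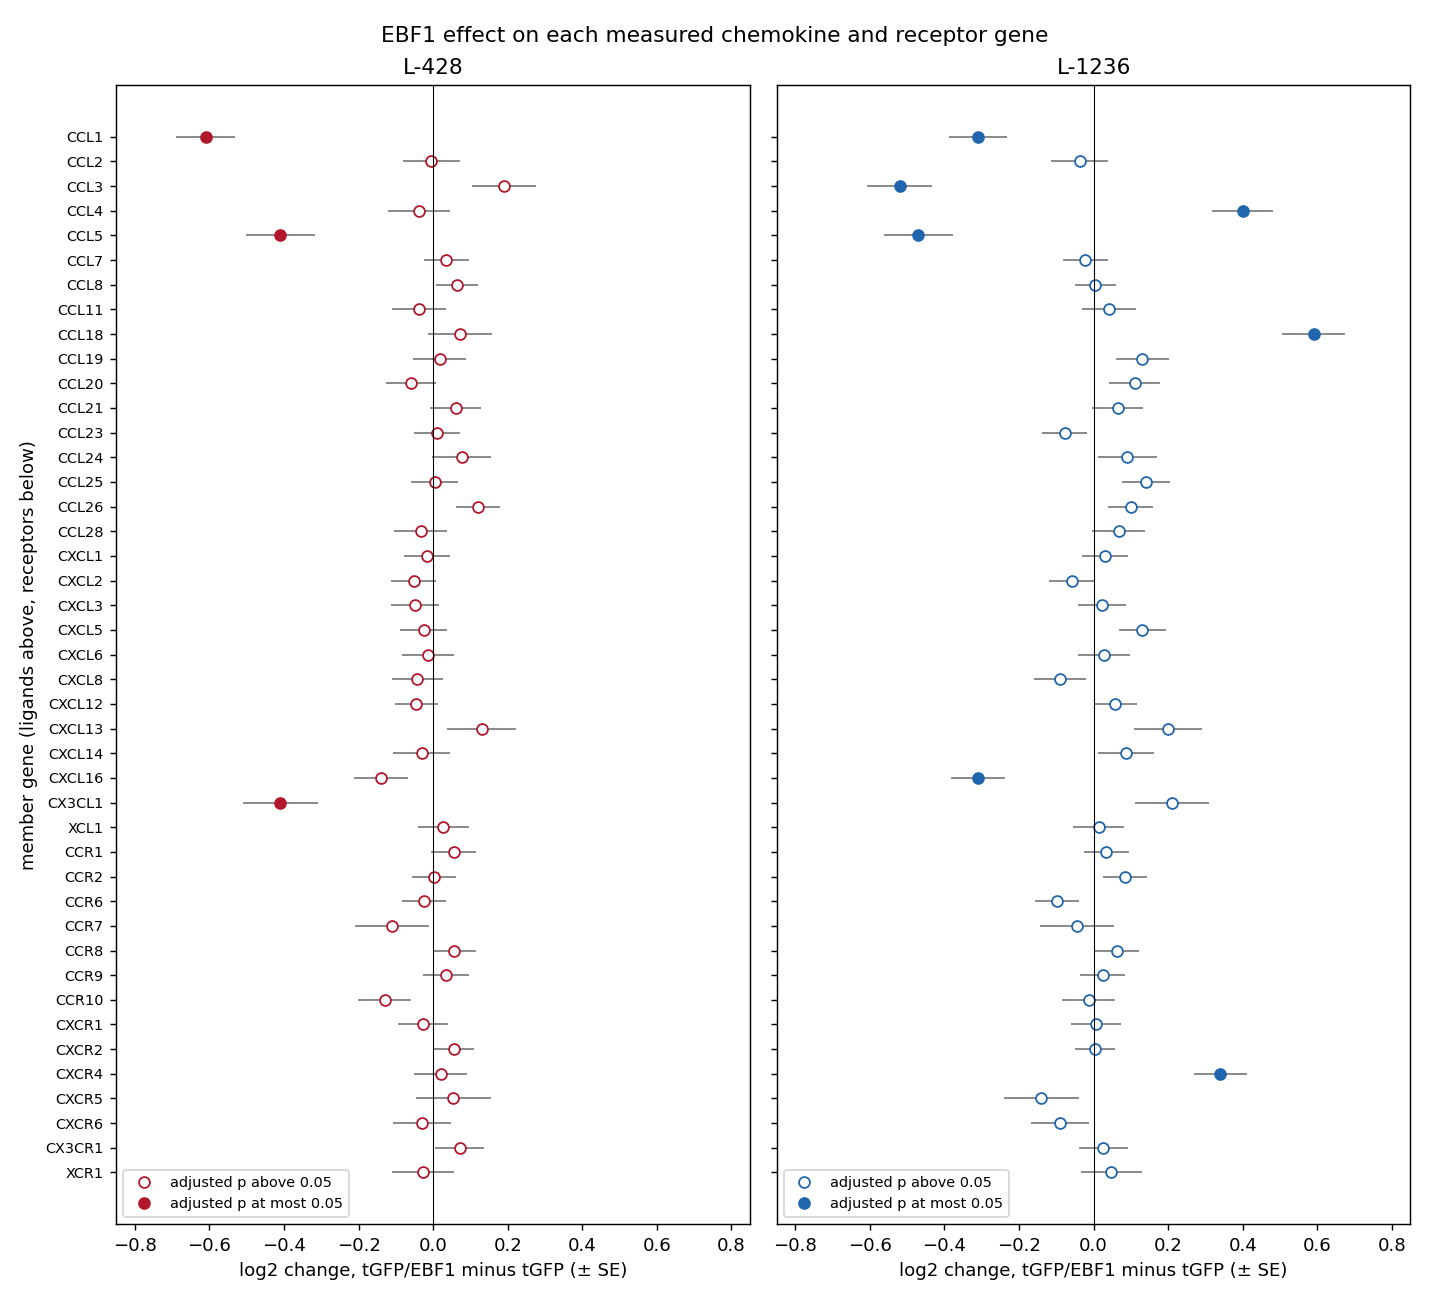
Log2 change with EBF1 (horizontal axis, tGFP/EBF1 minus tGFP, bars ± SE) for each of the 43 members in L-428 on the left and L-1236 on the right. Filled points passed an adjusted p of 0.05 (limma): 3 in L-428, all lower, and 7 in L-1236, 3 higher and 4 lower.

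The difference between the EBF1 effects of the lines was tested as an interaction. It passed for 4 of 43 members, 1 with a higher and 3 with a lower effect in L-428, or 9.3% against 5.16% of rows (3.38% higher and 1.79% lower). Here too the rows called turned, with 694 higher and 367 lower on all arrays, 701 and 756 without replicate 3 of L-428 tGFP, and 784 and 1113 without both arrays that stand apart (limma). None of the 4 reached 2-fold, which 0.156% of rows did. An unadjusted p under 0.05 was found for 6 members (limma), with no share of all rows counted at that level. In L-428, CCL3 measured 7.49, 7.54 and 7.44 with EBF1 against 7.46, 7.06 and 7.39 in controls, with overlap, the reverse order of means to L-1236. The effect on CCL3 was 0.19 in L-428 and -0.52 in L-1236, a difference of 0.71 ± 0.12 (SE; limma, adjusted p = 0.00165), in which the L-428 value did not pass (limma, adjusted p = 0.322). The row that CCL3 shares with its copies had a difference of 0.26 that did not pass (limma, adjusted p = 0.282), so the CCL3 difference is uncertain too. In L-1236, CX3CL1 measured 7.36, 7.52 and 7.54 with EBF1 against 7.15, 7.27 and 7.36 in controls, touching at one value. For CX3CL1 the effect was -0.41 in L-428 and 0.21 in L-1236, a difference of -0.62 ± 0.14 (SE; limma, adjusted p = 0.0147), and the L-1236 value did not pass (limma, adjusted p = 0.243). Without both arrays that stand apart the L-1236 value was 0.27 and passed (limma, adjusted p = 0.0191), and the difference was -0.83 (limma, adjusted p = 0.000118). CCL18 in L-428 measured 6.71, 6.85 and 6.76 with EBF1 against 6.67, 6.56 and 6.87 in controls, with overlap. Its effects were 0.072 in L-428 and 0.59 in L-1236 (difference -0.52; limma, adjusted p = 0.0142).

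In L-428, CCL4 measured 5.83, 5.88 and 5.95 with EBF1 against 5.95, 5.86 and 5.96 in controls, again with overlap. CCL4 had the fourth difference, -0.44 (limma, adjusted p = 0.0326), but it was lost in 12 of the alternatives, among them the omission of 9 of the 12 single arrays (limma, adjusted p up to 0.0971) and of both arrays that stand apart (limma, adjusted p = 0.0702). The CXCR4 effects were 0.02 and 0.34 in L-428 and L-1236, a difference of -0.32 that did not pass (limma, adjusted p = 0.0762). Without both arrays that stand apart it did, at -0.42 (limma, adjusted p = 0.0029). For CCL5 the difference was 0.057, with a 95% interval of -0.22 to 0.33. For CCL1 it was -0.30 (limma, adjusted p = 0.146), and -0.43 (limma, adjusted p = 0.00229) without both of those arrays.

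**Figure D3:**
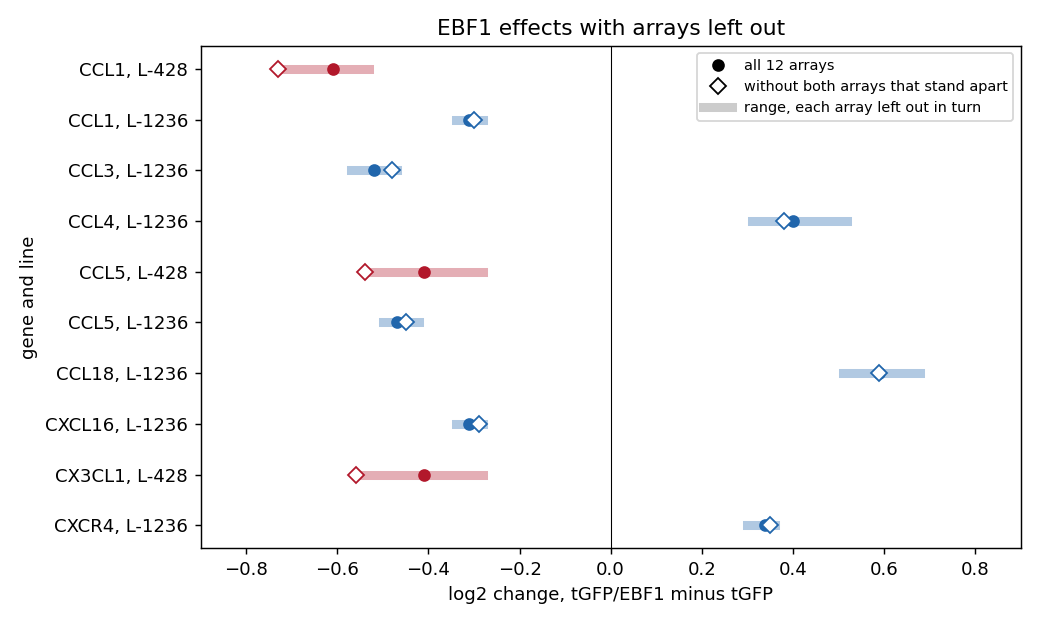
Log2 change with EBF1 (horizontal axis) for the 10 calls of a gene in a line, red for L-428 and blue for L-1236, with all 12 arrays (filled), without both arrays that stand apart (open) and over the range with each array left out in turn (band). No band crosses 0, and the L-428 changes of CCL1, CCL5 and CX3CL1 are larger without those arrays.

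CCR7, the receptor for CCL19 and CCL21 and a known product of Hodgkin cell lines, did not pass in either line. It measured 12.23, 12.16 and 12.19 in L-428 tGFP/EBF1 against 12.32, 12.59 and 12.00 in L-428 tGFP, and 12.16, 12.30 and 12.17 in L-1236 tGFP/EBF1 against 12.36, 12.20 and 12.20 in L-1236 tGFP. The groups overlapped in both lines. Its changes were -0.11 (95% interval -0.33 to 0.10; limma, adjusted p = 0.774) in L-428 and -0.044 (95% interval -0.26 to 0.17; limma, adjusted p = 0.87) in L-1236. Without both arrays that stand apart the L-428 change was -0.26 and passed (limma, adjusted p = 0.0403). CCR7 differed between the controls by 0.05 (limma, adjusted p = 0.746), and by 0.20 without those arrays (limma, adjusted p = 0.0339).

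CXCR5, the receptor that leads B cells to follicles, measured 6.31, 6.38 and 6.51 in L-428 tGFP/EBF1 against 6.28, 6.28 and 6.47 in L-428 tGFP. In L-1236 it was 7.15, 6.63 and 6.67 with EBF1 against 6.91, 6.95 and 7.02 in controls. Replicate 1 of L-1236 tGFP/EBF1 was the high one, and the change of -0.14 did not pass (limma, adjusted p = 0.498). Without that array CXCR5 fell by 0.31 (limma, adjusted p = 0.0124). The difference between the lines was 0.20 (limma, adjusted p = 0.582), and 0.43 (limma, adjusted p = 0.00577) without both arrays that stand apart.

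Between the control cells of the lines, a smaller share of members than of rows in general passed, though most member rows were low in signal. Of 43 members, 5 were higher and 6 lower in L-428 tGFP than in L-1236 tGFP (limma), or 25.6% against 47.9% of all rows (26.1% higher and 21.7% lower). At least 2-fold, with the same test, were 5 of the 43 members and 1479 of the 20546 rows (7.2%). Among the 17 CC ligands 3 were higher and 2 lower in L-428 tGFP, among the 12 other ligands 1 and 3, and among the 14 receptors 1 and 1. These are 29.4%, 33.3% and 14.3%, each below the 47.9% of all rows. However, 35 of the 43 members had every group mean below 7.63. Once dim rows were filtered out, 7 of the 8 members left passed, as did 8125 of 11328 rows (limma). The lower share of members was thus not seen among the brighter rows.

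Higher in L-428 were CCL1, CX3CL1 and CCL5. CCL1 averaged 11.83 ± 0.21 in L-428 tGFP and 8.25 ± 0.058 in L-1236 tGFP (SD, n = 3 each), 11.9-fold higher in L-428 (limma, adjusted p = 2.2e-17). CX3CL1 measured 10.38, 10.58 and 10.03 in L-428 tGFP against 7.15, 7.27 and 7.36 in L-1236 tGFP, 8.41-fold higher in L-428 (limma, adjusted p = 6.95e-15). CCL5 was 4.25-fold higher in L-428 tGFP than in L-1236 tGFP (limma, adjusted p = 5.67e-13). These are also the genes called lower with EBF1 in L-428, a comparison that shares the L-428 tGFP arrays with this one.

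Lower in L-428 was CCL2, the monocyte attractant that binds CCR2. It measured 7.01, 6.89 and 6.87 in L-428 tGFP against 10.70, 10.66 and 10.67 in L-1236 tGFP, a log2 difference of -3.75 ± 0.076 (SE; limma, adjusted p = 7.21e-18), or 13.5-fold higher in L-1236. EBF1 left no call on CCL2, which measured 6.94, 6.85 and 6.97 in L-428 tGFP/EBF1 and 10.48, 10.61 and 10.83 in L-1236 tGFP/EBF1. The changes against tGFP were -0.0051 (95% interval -0.17 to 0.16) in L-428 and -0.037 (95% interval -0.20 to 0.12) in L-1236. CCL3 measured 7.46, 7.06 and 7.39 in L-428 tGFP and was 2.46-fold higher in L-1236 tGFP (limma, adjusted p = 2.46e-10), and the row shared with its copies differed by -0.72 (limma, adjusted p = 8.45e-07).

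Smaller differences between the controls were found for 6 members. Among them, CXCL13, CXCR5, CCL20 and XCL1 had every group mean below 7.63, where a low transcript could not be told from none. CXCL13, the ligand of CXCR5, measured 5.77, 5.67 and 5.57 in L-428 tGFP against 6.41, 6.52 and 6.53 in L-1236 tGFP (-0.82; limma, adjusted p = 3.04e-07), and CXCR5 itself differed by -0.62 (limma, adjusted p = 5.16e-05). With EBF1, CXCL13 measured 5.76, 5.83 and 5.81 in L-428 and 6.48, 6.96 and 6.62 in L-1236. Its L-1236 change of 0.20 did not pass (limma, adjusted p = 0.227), but without both arrays that stand apart it was 0.30 and passed (limma, adjusted p = 0.0211). CXCL16 measured 7.72, 7.80 and 7.50 in L-428 tGFP and differed by -0.40 from L-1236 tGFP (limma, adjusted p = 0.000124). CXCR4 was the receptor higher in L-428 tGFP (0.34; limma, adjusted p = 0.000403). In both lines its group means with EBF1 were close, 10.40 in L-428 and 10.38 in L-1236.

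CCL20, the ligand of CCR6, measured 6.15, 6.13 and 6.34 in L-428 tGFP against 5.97, 5.89 and 6.02 in L-1236 tGFP (0.25; limma, adjusted p = 0.00464). XCL1, the ligand of XCR1, measured 6.4, 6.26 and 6.4 in L-428 tGFP against 6.65, 6.47 and 6.60 in L-1236 tGFP (-0.22; limma, adjusted p = 0.0116), and a second XCL1 row did not pass (-0.25; limma, adjusted p = 0.116). The XCL1 call was lost after median centring and without replicate 2 of L-428 tGFP or replicate 1 of L-1236 tGFP (limma, adjusted p up to 0.0696). The arrays of the lines did not overlap for 16 of 43 members, against 52.8% of all rows, but 35 of the 43 had every group mean below 7.63.

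**Figure D4:**
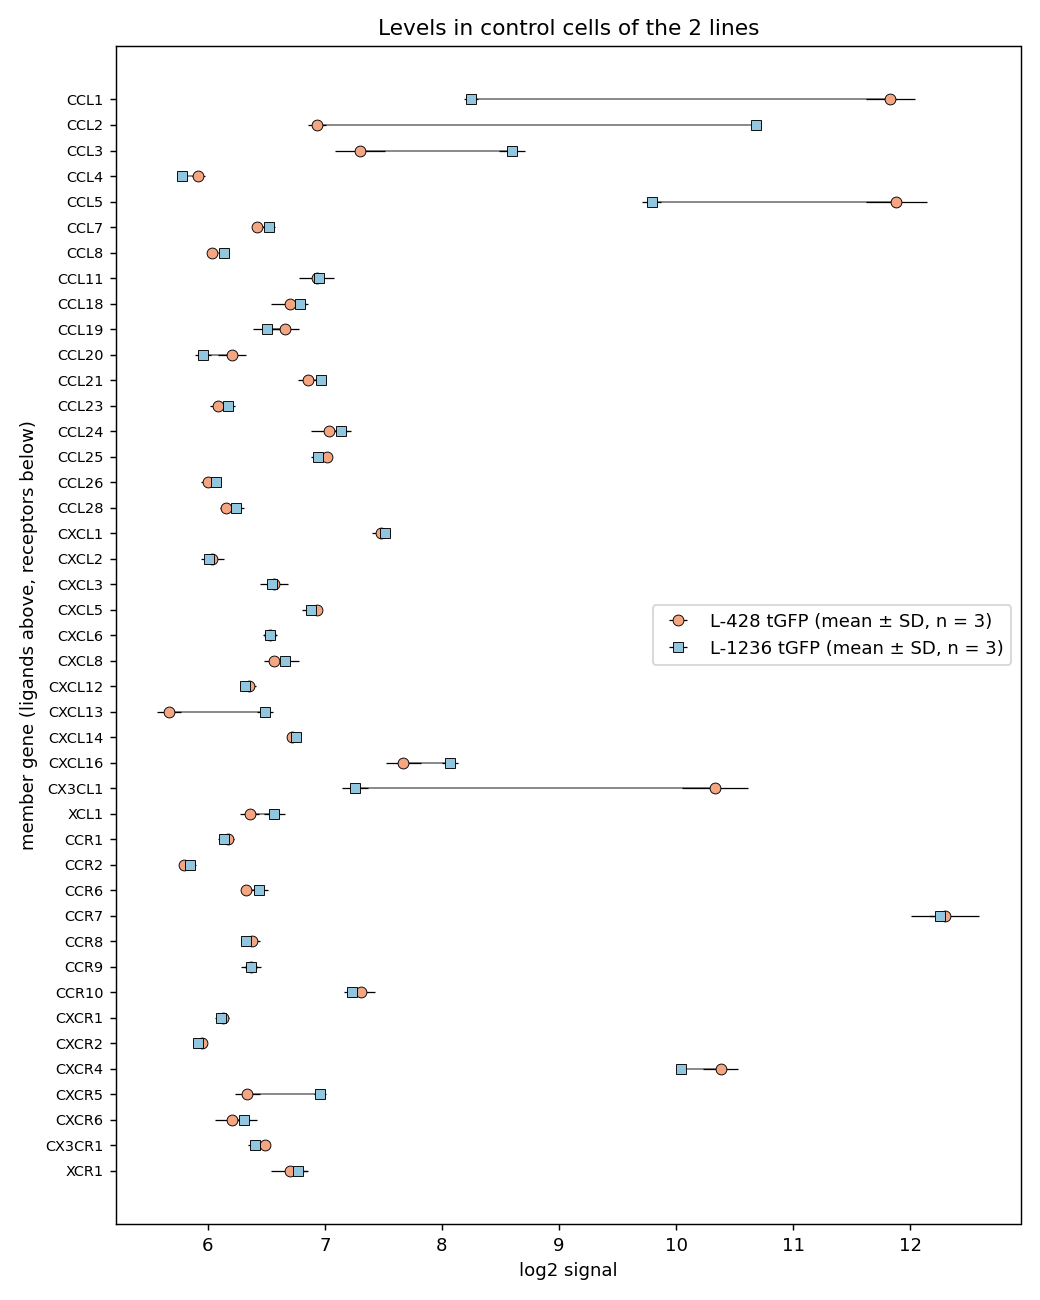
Log2 signal (horizontal axis) of each of the 43 members in L-428 tGFP (circles) and L-1236 tGFP (squares), mean ± SD of n = 3, joined by a grey line. CCL1, CX3CL1 and CCL5 lie higher in L-428 and CCL2 and CCL3 higher in L-1236, while most other pairs nearly coincide. Levels are not comparable between genes.

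The CC ligands on chromosome 17 lie in neighbouring groups, and the calls within a group went in both directions. In the order CCL2, CCL7, CCL11, CCL8 and CCL1 (RefSeq gene order, assembly GRCh38.p14), the outer genes CCL2 and CCL1 differed between the control cells in opposite directions. The inner ones did not pass, with differences of -0.10 (limma, adjusted p = 0.199) for CCL7, -0.025 (limma, adjusted p = 0.827) for CCL11 and -0.10 (limma, adjusted p = 0.147) for CCL8. Further along, in the order CCL5, CCL23, CCL18, CCL3 and CCL4, EBF1 in L-1236 was accompanied by falls of CCL5 and CCL3 and rises of CCL18 and CCL4, with -0.078 (limma, adjusted p = 0.537) for CCL23. The CCL3 and CCL4 changes are uncertain, as the row CCL3 shares with its copies changed by -0.081 and those of CCL4 by 0.28 and 0.12. CCL7, CCL11, CCL8, CCL23, CCL18 and CCL4 had every group mean below 7.63, so their rows do not show whether neighbours differ.

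The remaining 29 members passed in none of the 4 comparisons with all arrays (limma). Without both arrays that stand apart, CCL21, CCL24 and CXCR6 passed as lower in L-428 tGFP than in L-1236 tGFP (limma). The monocyte and eosinophil attractants CCL7 and CCL11 had group means of 6.42 to 6.52 and 6.89 to 7.0 (log2), and those of CCL8, CCL24 and CCL26 were 6.04 to 6.14, 7.04 to 7.23 and 6.0 to 6.17. The CCR7 ligands CCL19 and CCL21 had means of 6.51 to 6.67 and 6.86 to 7.04. Those of CCL23 were 6.09 to 6.17, of the gut ligand CCL25 6.94 to 7.08 and of the mucosal ligand CCL28 6.12 to 6.31. All of these means lie below 7.63.

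Among the CXC ligands of neutrophils, group means were 7.46 to 7.54 for CXCL1, 5.95 to 6.04 for CXCL2, 6.52 to 6.57 for CXCL3, 6.88 to 7.01 for CXCL5, 6.51 to 6.56 for CXCL6 and 6.52 to 6.66 for CXCL8, also known as interleukin-8. CXCL12, the ligand of CXCR4, had means of 6.30 to 6.38 and CXCL14 6.69 to 6.83.

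The receptors CCR1 (6.14 to 6.22), CCR2 (5.80 to 5.93), CCR6 (6.31 to 6.44), CCR8 (6.33 to 6.44), CCR9 (6.37 to 6.4) and CCR10 (7.18 to 7.31) stayed within 0.2 log2 units over the 4 groups. So did CXCR1 (6.10 to 6.13), CXCR2 (5.92 to 6.01), CXCR6 (6.18 to 6.31), CX3CR1 (6.4 to 6.57) and XCR1 (6.67 to 6.82). The matching receptors of the changed ligands CCL1, CX3CL1 and CXCL16, which are CCR8, CX3CR1 and CXCR6, did not pass in an EBF1 comparison. The row that CCL27, a skin chemokine, shares with LOC730098 had group means of 7.0 to 7.18 and passed no test (limma). In all, 35 of the 43 members had their highest group mean under 7.63.

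Genes that act around the receptors were taken from 5 further lists, 62 measured genes in all. In L-428, 2 were higher and 3 lower with EBF1 (limma), or 8.06% against 4.34% of rows, and in L-1236 5 were higher and 9 lower, or 22.6% against 9.64%. The median changes were -0.014 and 0.016. Of 21 genes of receptor coupling and feedback, 1 rose and 2 fell in L-428. RGS16, which shortens G protein signals, rose by 0.37 (limma, adjusted p = 0.00271) in L-428, while the receptor kinases GRK3 (-0.32; limma, adjusted p = 0.00724) and GRK2 (-0.30; limma, adjusted p = 0.0445) fell.

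In L-1236, 2 of these 21 rose and 4 fell (limma). RGS16 fell there by 0.53 (limma, adjusted p = 2.91e-05), and its effect differed between the lines by 0.90 (limma, adjusted p = 1.13e-05). The others that fell in L-1236 were the G protein subunit GNG2 (-0.37), RGS1 (-0.36) and GRK3 (-0.26), and those that rose were RGS10 (0.29) and GRK5 (0.23). GRK3 was lower with EBF1 in both lines, though its L-1236 means of 7.32 with EBF1 and 7.58 with tGFP lay below 7.63.

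Of 21 effectors of migration, 1 rose and 1 fell in L-428 and 3 rose and 3 fell in L-1236 (limma). DOCK8, an exchange factor for CDC42 needed for lymphocyte migration, had a group mean of 9.0 in L-428 tGFP/EBF1 and 8.08 in L-428 tGFP, a rise of 0.92 (limma, adjusted p = 1.91e-08). PREX1, an exchange factor for RAC proteins, fell in L-428 (-0.29), from 7.41 with tGFP to 7.12 with EBF1, both below 7.63. In L-1236 the haematopoietic GTPase RAC2 fell by 0.62 (limma, adjusted p = 8.3e-05), with falls also of the kinase PTK2B (-0.35) and the RAC activator DOCK2 (-0.27). The phosphoinositide kinase subunit PIK3CG (0.33) and the actin regulators CORO1A (0.27) and WAS (0.26) rose there. PIK3CG was low in that line, with means of 6.76 in L-1236 tGFP/EBF1 and 6.44 in L-1236 tGFP, below 7.63.

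Of 6 atypical receptors, 1 fell in L-1236, ACKR3 (-0.24), a second receptor for CXCL12, and none passed in L-428 (limma). ACKR3 had means of 6.2 in L-1236 tGFP/EBF1 and 6.44 in L-1236 tGFP, below 7.63, and the arrays of these groups overlapped. Of 8 genes of ligand processing and capture, 1 fell in L-1236, TPST1 (-0.22), an enzyme that sulphates receptor tyrosines, and 0 passed in L-428. None of 6 further chemokines passed in any comparison (limma).

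CCL18 and CCL3 are known from myeloid cells and CCL5 from T cells, so markers of those cells were measured beside them. Of 8 T- and NK-cell markers, 2 rose in L-1236 with EBF1, CD4 (0.48) and CD3D (0.32), and 0 passed in L-428 (limma). The mean over the list was 6.94 to 7.03 in L-1236 tGFP/EBF1 and 6.82 to 6.87 in L-1236 tGFP, and 6.57 to 6.63 in L-428 tGFP/EBF1 and 6.55 to 6.68 in L-428 tGFP. Of 7 myeloid markers, 1 rose in L-1236, CSF1R (0.36), and 0 passed in L-428. The myeloid mean was 6.76 to 6.84 in L-1236 tGFP/EBF1 and 6.68 to 6.73 in L-1236 tGFP, and 6.98 to 7.04 in L-428 tGFP/EBF1 and 6.93 to 7.01 in L-428 tGFP. Below every array median in all groups were 6 of the 8 T- and NK-cell markers, CD3D, CD3E, CD3G, CD2, CD8A and KLRD1. NKG7 (7.80 to 8.0) lay above, as did CD4 in L-1236, with means of 9.10 in L-1236 tGFP/EBF1 and 8.62 in L-1236 tGFP. Of the 7 myeloid markers 5 lay below, CD14, LYZ, S100A8, S100A9 and FCGR3A, while CSF1R (7.42 to 7.78) and CD68 (7.76 to 9.87) lay above. The part of these shifts in the chemokine values was not tested.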

How the data were processed

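Biotin-labelled, amplified total RNA of 12 samples was hybridised to Affymetrix arrays, per the labels' protocols. The deposited table holds 1 value per array and row, taken as log2 from its range (highest 14.3). No source used here gives the log base, the summarization or the normalization by the authors. Of 32321 rows, 19158 had 1 gene symbol, 1388 several and 11775 none, and 20546 rows with a symbol were tested. Of the rows with 1 symbol, 19128 matched RefSeq gene IDs.

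The deposited log2 values were fitted unscaled with limma 3.58.1 under R 4.3.3 (lmFit, eBayes, 4 group means, no block), with Benjamini-Hochberg adjustment within each of 4 contrasts. The threshold for a call, and for every verb of change, was an adjusted p of 0.05. The number of arrays limits precision, and the median standard error of a log2 change was 0.069. Members named with every array's value are those passing in an EBF1 contrast or in the difference, up to 6 of each sign between controls, and CCL5, CXCR4, CXCR5 and CCR7. The members, lists and motifs were chosen with earlier results of these data known. Alternatives were other scalings, row filters, variance models, array weights, thresholds, single-line fits, the replicate block and left-out arrays. Labels call the samples independent and name no batch. The fit was tested on simulated data. Figures used Python 3.11.15 and matplotlib 3.10.9.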

Additional observations from a re-analysis of the deposited data

Results flagged for a closer look

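The EBF1 effects of the lines differed, by the interaction term in limma, for 4 members. The L-428 effect minus the L-1236 effect was 0.71 for CCL3, -0.44 for CCL4, -0.52 for CCL18 and -0.62 for CX3CL1 (log2). The CCL3 row kept its call in every alternative run at an adjusted p of 0.05, but the row shared with its copies had a difference of 0.26 that did not pass (limma, adjusted p = 0.282). For the others, CCL18 lost it when every row was tested, CX3CL1 lost it then and after median centring, and CCL4 lost it in 12 alternatives. Among the genes that act around the receptors, the difference passed for RGS16 (0.90), DOCK8 (0.78), RGS1 (0.50), PTK2B (0.46), GNG2 (0.45), RGS2 (0.44), RAC2 (0.43), PREX1 (-0.36) and RGS10 (-0.30). Within these, RGS16 passed in both lines with opposite signs, and RGS2 passed in neither line alone (limma).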

How the results depend on the processing

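All calls of members in the EBF1 comparisons were smaller than 2-fold, so the fold limit left 0 in L-428, 0 in L-1236 and 0 for the difference (limma; 4, 9 and 6 members had an unadjusted p under 0.05) and 5 between the controls. No share of all rows was counted at that unadjusted level. In L-428 the 3 members called became 1 after median centring, 1 with every row tested, 1 at an adjusted p of 0.01 and 5 with array weights, and 1 to 4 with each array left out in turn. In L-1236 the 7 became 20 with array weights (whose planned method did not converge) and 6 to 9 with arrays left out. The 4 differences became 2 after median centring, 2 after the filter on dim rows, 1 with every row tested, 1 at an adjusted p of 0.01, 8 with array weights and 3 to 5 with arrays left out. The filter kept 8 of the 43 members and removed CCL4 and CCL18, which were not tested again. The 11 between the controls became 7 of the 8 members tested after the filter on dim rows, which removed CCL20, CXCL13, CXCR5 and XCL1. They became 10 to 14 with arrays left out, and quantile normalization turned the split of 5 higher and 6 lower into 8 and 6. Gene-by-gene array weights, added after seeing the data, gave 5, 11, 7 and 17 in the same order, and leaving out both arrays that stand apart, also added, gave 5, 10, 6 and 15. With array weights CCL2 in L-1236 turned to 0.16. Those weights were 0.26, 0.35 and 36.66 for EBF1 arrays 1, 2 and 3 of that line. The weighted L-1236 values, and the differences that use them, thus rest mostly on the last of these arrays. On it CCL2 measured 10.83, and the L-1236 controls had 10.70, 10.66 and 10.67. The cause of the other shifts in these counts was not tested.

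Over all rows, the 892 calls in L-428 became 1614 after quantile normalization and 498 after median centring, the 1981 in L-1236 3063 after quantile normalization, and the 1061 differences 1865 and 599, and 676 with every row tested. With array weights these were 2657, 8750 and 4538, gene by gene 2592, 5176 and 3194, and without both arrays 1984 in L-428 and 1897 for the difference. At an adjusted p of 0.01 they were 434, 1131 and 479, and with the fold limit 20, 30 and 32 (1479 of 9836 between controls). With arrays left out they reached down to 463, 1294 and 672. Same-numbered EBF1 and control deviations from the group means correlated at 0.23, -0.21 and -0.020 in L-428 and at 0.28, -0.074 and 0.19 in L-1236. Arrays of unlike number correlated between -0.35 and 0.31. These values do not show a pairing by replicate number, and with 3 arrays per group they cannot exclude one. With the replicate block, 3, 7, 4 and 11 members were called in the 4 comparisons, the same genes as without it.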
